A study of Mus musculus with 12 samples.

Results

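The ribosome occupancy of 10 translation factors was followed, namely Eef1a1, Eef1a2, Eef1b2, Eef1d, Eef1g, Eef2, Eif5a, Eif4a1, Eif4a2 and Eif4g2. The rule names the genes, and all 10 were present among the 10481 genes of the deposited footprint counts. Ribosome profiling reads the mRNA fragments that ribosomes shield from RNase, so the ribosome occupancy of a gene depends on how much of its mRNA is present as well as on how many ribosomes it carries. Brain and spinal cord were taken from control embryos (Smn+/-; SMN2tg/0) and from embryos of the SMA Taiwanese model (Smn-/-; SMN2tg/0, Jackson strain 005058) at embryonic day 14.5 (E14.5), and each of the 4 groups had 3 libraries. Spinal muscular atrophy (SMA) is caused by low levels of the SMN protein. Both genotypes carried the human SMN2 transgene, and the controls were heterozygous for the Smn deletion rather than wild type. Embryos are named as the replicates in the legends of the study, so the libraries of a group were taken as separate embryos. Whether brain and spinal cord of the same number came from the same embryo is not given in the sources used here.

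Translation factors act in order on an mRNA. Eif4a1 and Eif4a2 are closely related RNA helicases of the cap-binding complex that unwind the leader of the mRNA, and Eif4g2 (also known as Dap5) is a scaffold related to eIF4G that supports initiation without the cap-binding protein. During elongation eEF1A, made from either Eef1a1 or Eef1a2, brings each aminoacyl-tRNA to the ribosome, the eEF1B complex of Eef1b2, Eef1d and Eef1g reloads eEF1A with GTP, Eef2 moves the ribosome on to the next codon, and Eif5a, which carries the modified amino acid hypusine, helps the ribosome over difficult stretches such as prolines. Eef1a1 is the widespread form, whereas Eef1a2 is the form of mature neurons and muscle, and the nervous system is known to exchange the first for the second as neurons mature.

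The sequences before the start sites of both paralog pairs are shown because the ratio of the members of each pair differed between the tissues. Each is the 250 bases upstream of the RefSeq start site in GRCm38.p6, the build of the files, written 5′ to 3′ on the gene's strand, with every CG dinucleotide in capitals. Eef1a1 is from chr9:78481725-78481974 (minus strand), Eef1a2 from chr2:181157016-181157265 (minus strand), Eif4a1 from chr11:69672424-69672673 (minus strand) and Eif4a2 from chr16:23107218-23107467 (plus strand).
Eef1a1: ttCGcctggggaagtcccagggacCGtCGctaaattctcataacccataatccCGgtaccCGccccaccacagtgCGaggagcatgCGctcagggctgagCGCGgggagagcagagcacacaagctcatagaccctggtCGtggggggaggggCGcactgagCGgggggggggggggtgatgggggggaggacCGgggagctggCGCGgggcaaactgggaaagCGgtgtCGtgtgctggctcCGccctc
Eef1a2: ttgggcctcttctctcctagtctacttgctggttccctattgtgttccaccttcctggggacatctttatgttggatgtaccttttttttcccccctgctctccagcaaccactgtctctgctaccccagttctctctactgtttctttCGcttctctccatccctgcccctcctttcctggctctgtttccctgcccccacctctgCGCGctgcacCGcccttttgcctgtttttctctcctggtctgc
Eif4a1: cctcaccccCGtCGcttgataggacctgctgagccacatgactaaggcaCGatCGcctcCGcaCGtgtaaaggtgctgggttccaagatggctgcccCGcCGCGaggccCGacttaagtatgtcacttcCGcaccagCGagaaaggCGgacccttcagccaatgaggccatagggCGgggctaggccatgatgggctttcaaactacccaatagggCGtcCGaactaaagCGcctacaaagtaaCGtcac
Eif4a2: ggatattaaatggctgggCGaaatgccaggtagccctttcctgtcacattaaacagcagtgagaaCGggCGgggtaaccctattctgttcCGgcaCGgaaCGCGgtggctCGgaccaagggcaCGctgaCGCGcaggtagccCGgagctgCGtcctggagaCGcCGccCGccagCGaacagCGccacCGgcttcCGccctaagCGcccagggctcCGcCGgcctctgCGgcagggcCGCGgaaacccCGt
The Eef1a2 window held 4 CG dinucleotides and had a GC content of 54%, and 37.8% of all 32851 such windows in the RefSeq table held fewer. The other windows were richer, with 18 CG dinucleotides in Eef1a1 (78.3% of windows held fewer), 18 in Eif4a1 (78.3%) and 27 in Eif4a2 (91.4%). The median window held 6. These counts of letters describe the windows only. A window was at hand for 7 of the 10 genes. Gene positions given with the identifiers are those of RefSeq on the same build.

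Library totals were 3683842 to 9117017 counts in brain and 5162190 to 12793955 in spinal cord, and each SMA spinal cord library (5162190 to 8027322) was shallower than each control spinal cord library (10315064 to 12793955). The labelled tissues were set apart by 8 Hox genes, which mark spinal position. Their summed level was 389 to 688 CPM (footprints scaled to a common library total) in spinal cord and 2.19 to 5.58 CPM in brain. Control spinal cord library 1 stood apart, with the highest summed level of progenitor genes of that tissue and the lowest of Hox genes. Its Hox sum was 389 CPM, against 688 and 469 CPM in its replicates, and what set this library apart was not tested. The values of Eef1a2 and of the spinal cord SMA comparison are therefore also given without it. A summed level of 5 neural progenitor and cell cycle genes was 777 to 825 CPM in the brain of controls and 593 to 702 CPM in that of SMA embryos, and 266 to 466 CPM and 207 to 256 CPM in their spinal cords, while 8 neuronal genes summed to 6177 to 7326 CPM in the brain of controls and 6646 to 7486 CPM in that of SMA embryos, and to 5952 to 7484 CPM and 7134 to 8734 CPM in their spinal cords. A summed level of 4 liver and yolk sac genes came to 1072 CPM in SMA spinal cord library 1, 353 CPM in control spinal cord library 3 and at most 38.5 CPM elsewhere, and the part of such RNA in the results was not tested. Connective tissue and cartilage genes differed between spinal cord and brain. Log2 differences in controls and SMA were 3.96 and 3.97 for Col14a1, 2.04 and 2.30 for Col1a1, and -0.45 and -0.13 for Col2a1. Of 6 muscle genes listed as markers, 0 could be followed among the named genes. The part of connective tissue or muscle RNA in the results, Eef1a2 included, was not tested. In whole tissue, fewer cells of a type and less RNA per cell cannot be told apart. Spread between replicates was wider in spinal cord, with a biological coefficient of variation of 0.22 against 0.108 in brain.

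Together the 10 genes took 0.677% to 0.866% of all counts in the brain libraries and 0.615% to 0.762% in the spinal cord libraries. Per base of exon (RPKM, CPM divided by the union of exons in kilobases), Eef1a1 stood first in control brain at 524 ± 101 RPKM (SD, n = 3), higher than 99.64% of all genes. Eif5a followed at 481 ± 93.0 RPKM, and the values of both genes overlapped. Eif4a1 at 297 ± 40.4 RPKM and Eif4a2 at 295 ± 23.9 RPKM could not be ordered either. Eef1a2 was lowest at 40.1 ± 3.20 RPKM, below the next gene in each library, and higher than 79.24% of all genes. Per base of exon union, the 3 subunits of the eEF1B complex were not level with each other, with Eef1b2 at 197 ± 28.7 RPKM, Eef1g at 168 ± 11.4 RPKM and Eef1d at 75.5 ± 6.53 RPKM. Not divided by length, they were close, at 464 ± 67.5, 436 ± 29.6 and 469 ± 40.6 CPM. The long exon unions given for Eif4g2 (10016 bases) and Eef1d (6211 bases) lower their RPKM, because footprints lie mainly on coding sequence.

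In control spinal cord the order was different. Eif4a2 came first at 321 ± 20.7 RPKM, with values that overlapped those of Eef1a1 (308 ± 21.7 RPKM), which in turn overlapped those of Eif5a (292 ± 18.9 RPKM). Eef1a2 at 70.6 ± 7.69 RPKM no longer stood last, since Eef1d was at 55.0 ± 6.04 RPKM. By counts, which favour long mRNAs, Eif4a2 ranked 13 of 10481 genes in the spinal cord of controls and 12 in that of SMA embryos.

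**Figure D1:**
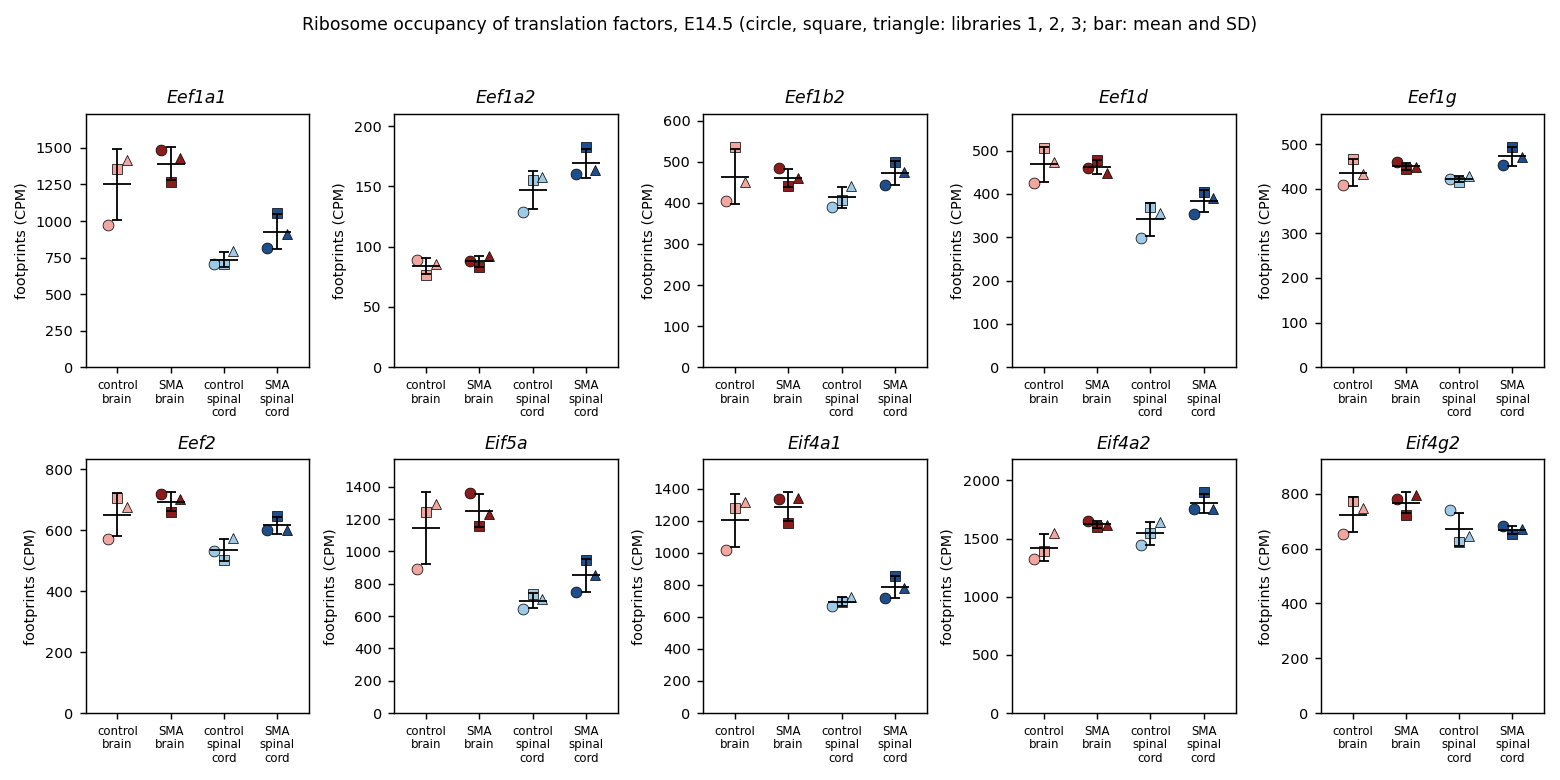
Ribosome occupancy of the 10 translation factors in all 12 libraries, as footprints in CPM normalized with the TMM factors of all libraries (vertical axis from 0, a separate scale for each gene), by group on the horizontal axis. Circles, squares and triangles are libraries 1, 2 and 3, and bars give the mean and SD of 3 libraries; Eef1a2 lay between 76.3 and 92.3 CPM in brain and between 129 and 183 CPM in spinal cord, whereas Eef1a1, Eif5a and Eif4a1 were lower in spinal cord.

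Spinal cord was compared with brain within each genotype, so that the control and SMA comparisons shared no library. In controls, 5 of the 10 genes passed an adjusted p of 0.05 by the quasi-likelihood test of edgeR, against 38.4% of all genes, with 1 higher in spinal cord (20.4% of all genes) and 4 lower (18.1%). In SMA the count was 7, against 36.7% of all genes, with 2 higher (19.5%) and 5 lower (17.2%). With the library number as a block, a pairing that the labels do not state, 4 genes remained in SMA. They were Eef1a1, Eef1a2, Eif5a and Eif4a1, and all 4 were called in controls as well. The SMA count was also 4 without SMA brain library 1, without SMA spinal cord library 1 and without SMA spinal cord library 3. Over all genes 2628, 3583 and 2895 were called without these libraries in turn. The count was 3745 with the block and 3849 in the main SMA fit.

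Eef1a2 (ENSMUSG00000016349, chr2:181141758-181157015) had 89.3, 76.3 and 85.4 CPM in control brain libraries 1, 2 and 3, and 129, 155 and 158 CPM in the control spinal cord libraries. In SMA it had 87.8, 83.5 and 92.3 CPM in brain and 160, 183 and 164 CPM in spinal cord. Every spinal cord library was thus above every brain library. The difference on the log2 scale was 0.82 (SE 0.11, 1.77-fold, adjusted p = 0.00134 from edgeR) in controls and 0.95 (SE 0.09, 1.94-fold, adjusted p = 0.000214) in SMA. Without control spinal cord library 1 it was 0.91 in controls.

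Its paralog Eef1a1 (ENSMUSG00000037742, chr9:78478453-78481724) went the other way. Eef1a1 was at 975, 1355 and 1421 CPM in control brain and at 704, 706 and 795 CPM in control spinal cord. In SMA the values were 1487, 1264 and 1428 CPM in brain and 817, 1055 and 909 CPM in spinal cord. The groups of a genotype did not overlap, although the first control brain library, the deepest of the brain, lay nearer to spinal cord than its replicates. The difference was -0.76 (SE 0.15, 0.592-fold, adjusted p = 0.00587 from edgeR) in controls and -0.58 (SE 0.10, 0.669-fold, adjusted p = 0.00298) in SMA.

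Of the helicase pair, Eif4a1 (ENSMUSG00000059796, chr11:69666936-69672423) was the lower in spinal cord. Its levels were 1014, 1277 and 1314 CPM in brain and 665, 694 and 727 CPM in spinal cord of controls. In SMA they were 1337, 1185 and 1340.3 CPM in brain and 719, 856 and 783 CPM in spinal cord. No spinal cord library reached any brain library. The difference was -0.78 (SE 0.11, 0.583-fold, adjusted p = 0.0017 from edgeR) in controls and -0.70 (SE 0.08, 0.614-fold, adjusted p = 0.000394) in SMA. Eif4a2 (ENSMUSG00000022884, chr16:23107468-23114132) was by contrast nearly level between the tissues, with 1324, 1389.7 and 1549 CPM in control brain and 1444, 1551 and 1644 CPM in control spinal cord. In SMA it had 1649.7, 1596 and 1620.3 CPM in brain and 1757, 1897 and 1753 CPM in spinal cord. The groups overlapped in controls (log2 difference 0.13, SE 0.09, adjusted p = 0.282 from edgeR) and did not in SMA (0.16, SE 0.05, adjusted p = 0.0344), but the SMA call was lost with the block (adjusted p = 0.179) and when any single library was left out (adjusted p 0.0662 to 0.124).

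Eif5a (ENSMUSG00000078812, chr11:69916712-69921958) resembled Eef1a1. It had 890.2, 1247 and 1295 CPM in control brain against 646, 735 and 704 CPM in control spinal cord, and 1363, 1159 and 1235 CPM in SMA brain against 750.3, 949 and 854 CPM in SMA spinal cord. As with Eef1a1, the lowest brain value was that of control library 1. The log2 difference was -0.71 (SE 0.15, 0.611-fold, adjusted p = 0.00745 from edgeR) in controls and -0.55 (SE 0.09, 0.683-fold, adjusted p = 0.00312) in SMA.

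The eEF1B complex did not move as a unit. Eef1d (ENSMUSG00000055762, chr15:75894796-75909784), its delta subunit, was at 426, 506 and 474 CPM in control brain and 299, 370.2 and 355 CPM in control spinal cord. Its log2 difference was -0.45 (SE 0.11, adjusted p = 0.0151 from edgeR) in controls and -0.26 (SE 0.07, adjusted p = 0.0247) in SMA, and the latter call was lost with the block (adjusted p = 0.0538). Leaving out control brain library 2 (adjusted p = 0.06) or 3 (adjusted p = 0.0554) ended the call in controls, and leaving out SMA brain library 1 or 2 or SMA spinal cord library 1 or 3 ended it in SMA (adjusted p 0.0663 to 0.0933). Eef1b2 (ENSMUSG00000025967, chr1:63176831-63180486), the exchange subunit, overlapped between the tissues in both genotypes, with log2 differences of -0.16 (SE 0.12) and 0.04 (SE 0.07) and levels of 389 to 537 CPM over the 12 libraries. Eef1g (ENSMUSG00000071644, chr19:8967041-8978180), the gamma subunit, overlapped as well, with -0.04 (SE 0.08) and 0.08 (SE 0.06). In control spinal cord its libraries were close together at 422, 416 and 428 CPM.

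For Eef2 (ENSMUSG00000034994, chr10:81176631-81182509), the translocase, values were 570.3, 705 and 678 CPM in brain and 531, 501 and 573 CPM in spinal cord of controls. In SMA they were 718, 660 and 704 CPM in brain and 601, 647 and 599.8 CPM in spinal cord. The control groups overlapped and the SMA groups did not. The difference missed the threshold in both genotypes, at -0.27 (SE 0.11, adjusted p = 0.074 from edgeR) and -0.16 (SE 0.06, adjusted p = 0.0787), and passed it in controls without control brain library 1 (-0.36, adjusted p = 0.0136). Eif4g2 (ENSMUSG00000005610, chr7:111067985-111083030), at 626 to 795 CPM over the 12 libraries, differed by -0.10 (SE 0.10, adjusted p = 0.461 from edgeR) in controls and by -0.19 (SE 0.06, adjusted p = 0.0451) in SMA, where the call was lost with the block (adjusted p = 0.123) and without each of the SMA libraries other than brain library 2 (adjusted p 0.0648 to 0.125).

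**Figure D2:**
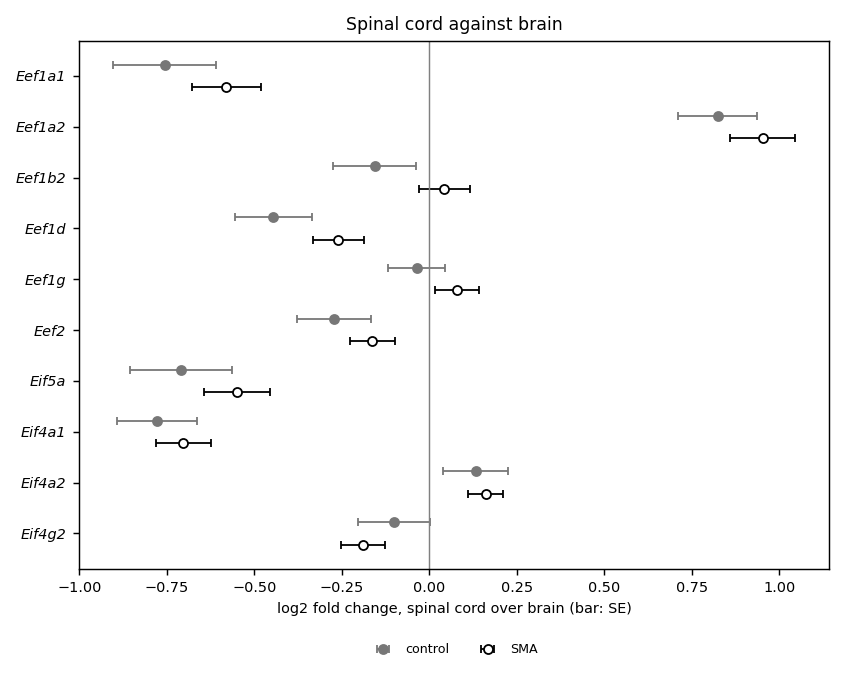
Log2 fold change of spinal cord over brain (horizontal axis) for each of the 10 translation factors, in controls (filled grey) and in SMA (open black), from fits of 6 libraries each; bars are SE. Eef1a2 lay at 0.82 and 0.95, and Eef1a1, Eif5a and Eif4a1 lay between -0.78 and -0.55.

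The levels of several of these genes followed the depth of the library. Control brain library 1 held 2.17 times the counts of control brain library 3, and over all genes the median ratio of their counts was 2.29, but the ratio was 1.53 for Eef1a1, 1.53 for Eif5a and 1.72 for Eif4a1. Only 2.59% of the genes compared had a lower ratio than Eef1a1. For Eef1a2 the ratio was 2.33. The other groups spanned less depth, and Eef1a1 was less extreme there. A lower ratio was found for 28% of genes in control spinal cord, 21.5% in SMA brain and 14% in SMA spinal cord. In control spinal cord the ratio was 1.02 for Eef1a2 and 1.106 for Eef1a1, against a median of 1.232. The authors removed reads that shared a transcript position, whether before or after counting is not given in the sources used here, and the part of that step in these ratios was not tested.

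Since spinal cord libraries were mostly deeper than brain libraries, the tissues were also set side by side in the pair of libraries of each genotype with the closest totals, with no test. Between control brain library 1 (9117017 counts) and control spinal cord library 3 (10315064 counts), the log2 difference was 0.82 for Eef1a2, -0.48 for Eif4a1, -0.30 for Eef1a1 and -0.34 for Eif5a. Between SMA brain library 2 (5406430 counts) and SMA spinal cord library 2 (5162190 counts), it was 1.13 for Eef1a2, -0.47 for Eif4a1, -0.26 for Eef1a1 and -0.29 for Eif5a. All 4 genes kept their direction at matched depth, and the differences of Eef1a1, Eif5a and Eif4a1 were smaller than those over all libraries. In the control pair 3 other genes lay on the opposite side of 0 from the difference over all libraries, namely Eef1b2 (0.13), Eef1g (0.067) and Eef2 (0.0077). Eif4a2 was higher in the spinal cord library of both pairs, by 0.31 and 0.25.

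When a smooth trend with counts per base was removed from each library, these 4 genes also kept their direction and stayed past the threshold. The log2 difference in controls became 0.98 for Eef1a2 (adjusted p = 0.000414 from edgeR), -0.37 for Eif4a1 (adjusted p = 0.00318), -0.30 for Eef1a1 (adjusted p = 0.0209) and -0.26 for Eif5a (adjusted p = 0.0267). Under the same setting Eif4a2 was higher in spinal cord by 0.55 in controls (adjusted p = 0.00127) and by 0.45 in SMA (adjusted p = 0.00127), and Eef1g by 0.32 in controls (adjusted p = 0.0162) and by 0.32 in SMA (adjusted p = 0.00628).

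**Figure D3:**
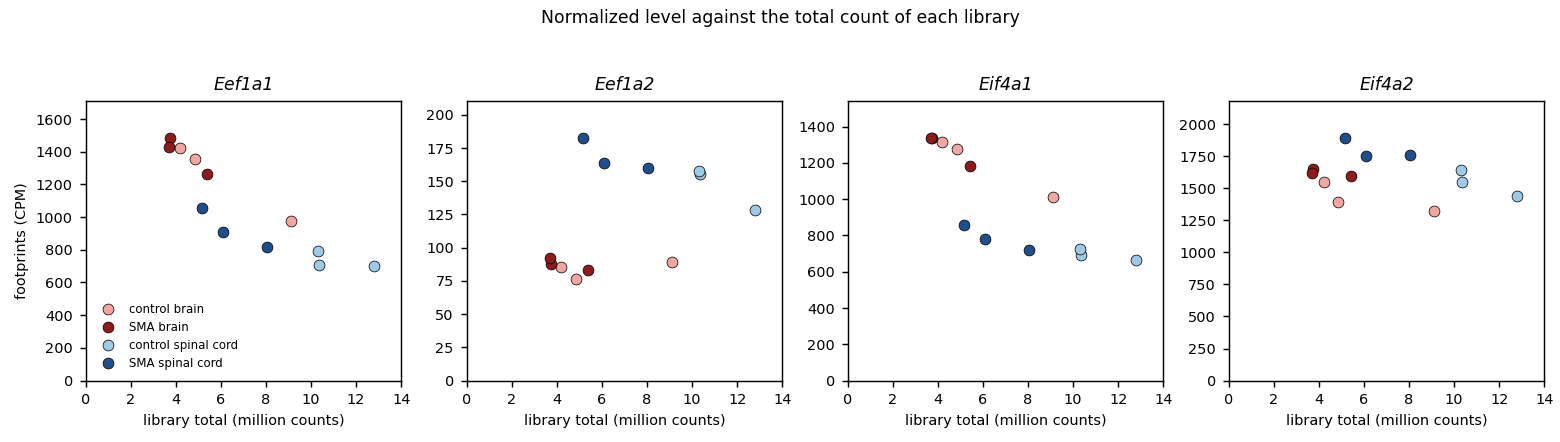
Normalized level in CPM (vertical axes from 0, a separate scale for each gene) of both paralog pairs against the total counts of each library; each point is a library and its colour gives the group. Eef1a1 was lower in the deeper libraries of either tissue, whereas for Eef1a2 every spinal cord library was above every brain library. The tissues shared depths only between 5162190 and 9117017 counts. In brain Eef1a1 went from 1487 CPM at 3729097 counts to 975 CPM at 9117017 counts. In spinal cord it went from 1055 CPM at 5162190 counts to 704 CPM at 12793955 counts.

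A ratio of paralogs within 1 library needs no normalization between libraries. Its level depends on the exon unions used as lengths, but its log2 difference between groups does not. Per base, the Eef1a2 to Eef1a1 ratio was 0.105, 0.0644 and 0.0688 in the brain of controls and 0.0675, 0.0756 and 0.0740 in the brain of SMA embryos. In spinal cord it was 0.209, 0.251 and 0.227 in controls and 0.224, 0.199 and 0.206 in SMA. All 6 spinal cord libraries were above all 6 brain libraries, also above the deepest brain library. Eef1a2 thus supplied 7.32% ± 1.88 (SD, n = 3) of the footprints per base of the pair in the brain of controls and 6.75% ± 0.372 in that of SMA embryos, against 18.6% ± 1.40 and 17.3% ± 0.897 in their spinal cords. The ratio was 2.92-fold higher in spinal cord (log2 difference 1.55, with 1.56 in controls and 1.53 in SMA), with a 2-sided exact permutation p of 0.005 over 400 relabellings within genotype, the smallest they can give, and an adjusted p of 0.01 over the 4 ratio tests. When tissues were exchanged only within libraries of the same number, the exact permutation p was 0.0312, the smallest that allows, and the adjusted p of 0.0625 was past 0.05. SMA differed from control by -0.11 on the log2 scale (exact permutation p = 0.4).

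Per base of exon union (4824 and 4047 bases), the Eif4a2 to Eif4a1 ratio was near parity in brain. It was 1.10, 0.913 and 0.989 in controls and 1.04, 1.13 and 1.01 in SMA. By counts not divided by length, Eif4a2 was above Eif4a1 in each brain library, as with 6613 against 6078 counts in control library 2. In spinal cord it was 1.82, 1.88 and 1.90 in controls and 2.05, 1.86 and 1.88 in SMA. The tissues did not overlap, and the spread between the control spinal cord libraries was small (SD 0.0395). The log2 difference was 0.88 (1.85-fold, 0.90 in controls and 0.86 in SMA), with an exact permutation p of 0.005 and an adjusted p of 0.01, and 0.0312 and 0.0625 with the pairing by number. Between genotypes it was 0.07 (exact permutation p = 0.185, adjusted p = 0.247). Without any 1 library the tissue differences were 1.48 to 1.66 for the Eef1a pair and 0.85 to 0.92 for the Eif4a pair.

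**Figure D4:**
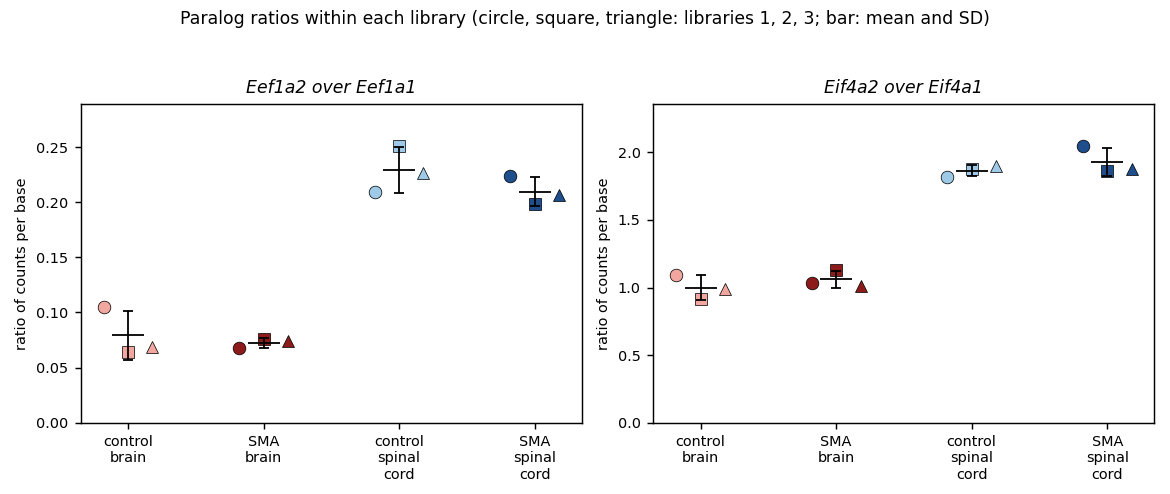
Ratio of counts per base of Eef1a2 over Eef1a1 (left) and of Eif4a2 over Eif4a1 (right) in each library, with the 4 groups on the horizontal axis and the vertical axes from 0. Circles, squares and triangles are libraries 1, 2 and 3, and bars are the mean and SD; no brain library reached the lowest spinal cord library, at 0.199 for the first pair and 1.82 for the second.

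The comparison the study set out to make, SMA against control, was made within each tissue. In spinal cord, 0 of the 10 genes passed the thresholds of the study by edgeR (a log2 fold change of 0.5 or more in either direction with an unadjusted p below 0.05), which 0.983% of all genes passed, and 1 gene, Eef1a1, passed the lower fold threshold of 0.3 that the study used for pathways, against 4.19% of all genes. At an unadjusted p below 0.05, 6 of the 10 genes were called, all higher in SMA, against 6.99% of all genes and 3.73% in that direction. A log2 fold change above 0 was found for 9 of the 10 genes, against 48.9% of all genes, and their median was 0.19, against -0.01 over all genes. Cell type markers moved in the same comparison. Of 8 neuronal genes 7 lay above 0 (median 0.20), and 5 of 5 progenitor and cell cycle genes lay below 0 (median -0.58). The summed progenitor level was 466 CPM in control library 1, 266 and 302 CPM in its replicates, and 207 to 256 CPM in SMA. The part of these markers in the shift was not tested. No gene of the table had an adjusted p below 0.05 from edgeR, where the smallest was 0.684. By DESeq2 84 genes did, with Eef1a1 among them (adjusted p = 0.047).

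Eef1a1 had the largest of these differences. Its levels were 704, 706 and 795 CPM in control spinal cord and 817, 1055 and 909 CPM in SMA spinal cord, so all SMA libraries were above all control libraries. The log2 fold change was 0.32 (SE 0.10, 1.25-fold, unadjusted p = 0.015, adjusted p = 0.684 from edgeR). Eif5a, at 646, 735 and 704 CPM in controls and 750.3, 949 and 854 CPM in SMA, did not overlap either (0.28, SE 0.09, unadjusted p = 0.0208, adjusted p = 0.684 from edgeR). Eif4a2 had the smallest p of the 10 genes at 0.21 (SE 0.06, unadjusted p = 0.00913, adjusted p = 0.684 from edgeR), with 1444, 1551 and 1644 CPM in control and 1757, 1897 and 1753 CPM in SMA. The remaining genes at an unadjusted p below 0.05 were Eef2 (0.19), Eef1b2 (0.18) and Eef1g (0.15). Eef1a2 was higher by 0.19 (SE 0.11) without overlap but at an unadjusted p of 0.119 from edgeR, Eif4a1 by 0.16 (SE 0.08) and Eef1d by 0.16 (SE 0.10) with overlap, and Eif4g2 was at -0.02 (SE 0.08). Counted over the list, 7 of the 10 genes were higher in SMA without overlap, against 7.76% of genes averaging 20 or more counts.

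These differences ran with depth, since every SMA spinal cord library held fewer counts than every control spinal cord library, so depth and genotype cannot be told apart here. After removal of the trend with counts per base, the median of the 10 genes was -0.02, 0 of 10 had an unadjusted p below 0.05 from edgeR, and Eef1a1 was at 0.07 (unadjusted p = 0.319), Eif5a at 0.03 (0.555) and Eif4a2 at -0.04 (0.575). The count of 6 genes also fell to 2 when control library 1 or 2, or SMA library 2 or 3, was left out. Over all genes the count fell as well, from 733 to 391, 591, 423 and 393 in the same order. Without control library 1, which had the highest summed level of progenitor genes in spinal cord, the 2 genes were Eef1a1 (0.30) and Eif4a2 (0.17).

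In brain, 0 of the 10 genes passed the thresholds of the study from edgeR, against 1.53% of all genes, and 0 of all 10481 genes had an adjusted p below 0.05 by edgeR (the smallest was 0.902) or by DESeq2. A single gene, Eif4a2, had an unadjusted p below 0.05, against 5.05% of all genes. Eif4a2 was at 1324, 1389.7 and 1549 CPM in control brain and at 1649.7, 1596 and 1620.3 CPM in SMA brain. The SMA libraries were above the control libraries (log2 fold change 0.21, SE 0.09, unadjusted p = 0.0373, adjusted p = 0.902 from edgeR), and this was the 1 gene of 10 without overlap, against 11.4% of genes averaging 20 or more counts. The unadjusted p from edgeR stayed below 0.05 without control library 3 and not without any other library (0.0635 to 0.109), nor with the library number as a block (0.0736). Without control library 1 the difference was 0.15, and after removal of the trend with counts per base it was 0.08 (unadjusted p = 0.311).

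Of the other genes in brain, 8 had a positive and 1 a negative log2 fold change, between -0.0042 for Eef1d and 0.17 for Eef1a1. Over all 10 genes the median was 0.10, against 0.00 over all genes, of which 50.4% were higher. The shift was smaller without the deepest library. Without control brain library 1 the median of the 10 genes was 0.01, Eef1a1 was at 0.01, Eif5a at -0.02 and Eif4a1 at -0.0031. For Eef1b2 an approximate 95% interval of the log2 fold change ran from -0.21 to 0.22. It was built from the SE with a normal quantile, which makes it too narrow for so few libraries.

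**Figure D5:**
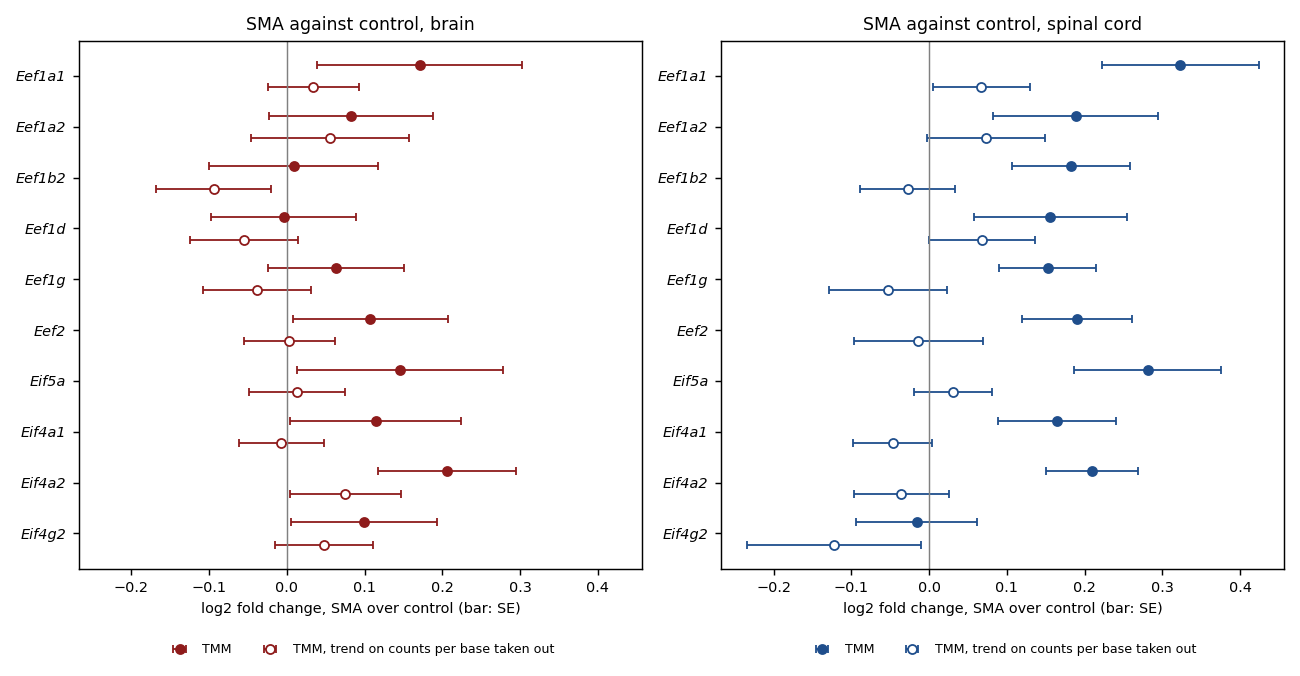
Log2 fold change of SMA over control (horizontal axes) in brain (left) and spinal cord (right) for the 10 translation factors, with TMM normalization (filled) and after removal of a trend with counts per base as well (open); bars are SE. In spinal cord the filled points lay between -0.02 and 0.32, and the open points between -0.12 and 0.07.

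Whether the SMA effect differed between the tissues was tested as an interaction term in a fit of all 12 libraries. None of the 10 genes had an adjusted p below 0.05 from edgeR (the smallest adjusted p of all genes was 1, and DESeq2 called 0 as well), and 0 of 10 had an unadjusted p below 0.05, against 2.38% of all genes. The interaction was above 0 for 9 of the 10 genes, against 55.5% of all genes, and unadjusted p-values lay between 0.173 for Eef1b2 (0.20, SE 0.14) and 0.764 for Eif4a2 (0.03, SE 0.10). Without control brain library 1, Eef1a1 (unadjusted p = 0.0419 from edgeR), Eef1b2 (0.037) and Eif5a (0.0409) were below 0.05. In that setting 423 of all 10481 genes were, against 249 with all libraries. With any other single library left out, 0 of the 10 genes were.

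Names were at hand for 1999 of the 10481 genes, and other genes of translation were followed among these. Of 13 further initiation genes, 0 passed the thresholds of the study between SMA and control (1.53% of all genes in brain and 0.983% in spinal cord). Also 0 had an unadjusted p below 0.05 from edgeR (5.05% and 6.99% of all genes). By tissue 2 were called in controls and 5 in SMA, against 38.4% and 36.7% of all genes. Mcts1, which helps restart initiation, was higher in spinal cord in both genotypes (log2 difference 0.44, adjusted p = 0.0217 from edgeR, and 0.49, adjusted p = 0.0127), and Eif3d, a subunit of the eIF3 scaffold, was lower in both (-0.29, adjusted p = 0.0334, and -0.23, adjusted p = 0.0476). In SMA alone Eif3e (0.31), Pabpc1, the poly(A)-binding protein (-0.28), and Eif1b (-0.26) also passed, and whether they differed between genotypes was tested as the interaction above, where none was called. Eif5, the most occupied of the list at 750 ± 74.6 CPM in control brain, was at 0.01 and 0.07.

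Among 4 further genes of elongation, termination and recycling, Rack1, a protein of the small ribosomal subunit that binds signalling proteins, was lower in spinal cord in both genotypes (-0.38, adjusted p = 0.0269 from edgeR, and -0.28, adjusted p = 0.025). Hbs1l, which rescues stalled ribosomes, was at -0.25 between SMA and control spinal cord (unadjusted p = 0.0466, adjusted p = 0.684 from edgeR). None of 7 cytosolic aminoacyl-tRNA synthetases was called in any comparison, against 38.4% of all genes between the tissues in controls and 36.7% in SMA. Farsa and Wars, the most occupied of them, were at -0.25 and 0.09 between spinal cord and brain of controls.

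The 13 ribosomal protein genes with a name resembled Eef1a1 and Eif5a. In controls 11 were lower (18.1% of all genes) and 0 higher (20.4%) in spinal cord at an adjusted p below 0.05 from edgeR. Their median log2 difference was -0.47. In SMA 9 were lower (17.2% of all genes) and 1, Rpl10, higher (19.5%), with a median of -0.44. Rps9, the most occupied of them, was at 849 ± 157 CPM in control brain and 563 ± 47.4 CPM in control spinal cord (-0.59, adjusted p = 0.0129). Rps27a, which is made as a fusion with ubiquitin, was at -0.86 (adjusted p = 0.0069). Between SMA and control spinal cord all 13 had a log2 fold change above 0 (median 0.23), against 48.9% of all genes. Rps25 (0.27, unadjusted p = 0.0107) and Rps15a (0.23, unadjusted p = 0.031) had an unadjusted p below 0.05 from edgeR, against 6.99% of all genes. Both were at an adjusted p of 0.684. The further genes of translation were not followed in the closest-depth pairs or after removal of the trend with counts per base. Every SMA spinal cord library was shallower than every control spinal cord library, so depth and genotype cannot be told apart for them either.

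Across the 12 libraries, the 3 named genes whose level was most like that of Eef1a1 were Ubb (Pearson r = 0.993), a polyubiquitin gene, Prdx2 (0.991), a peroxidase, and Eif5a (0.989). For Eef1a2 they were Rbfox1 (0.990), a splicing factor of neurons, Oxct1 (0.988), an enzyme of ketone body use, and Slc22a17 (0.988). Each r was computed over 12 libraries among 1694 named genes, and it carries no p, because the libraries share tissue, genotype and depth.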

How the data were processed

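Ribosome profiling libraries of E14.5 brain and spinal cord (3 of each genotype and tissue) were analysed. The authors purified the fraction of single ribosomes, trimmed the reads with cutadapt 4.1, removed rRNA and tRNA reads, aligned the rest to GRCm38.p6 with STAR 2.5.3a, allowing several alignments a read, discarded reads that shared a transcript position, and left out genes below an FPKM minimum. The deposited values are raw counts for 10481 genes with a length per gene. Whether the counts precede the removal of shared positions is not given in the sources used here. Several members have processed pseudogenes or close paralogs, and Eef1d, Eif5a and Eif4a2 overlap Tigd5, Gps2 and Rfc4, so their counts can include reads of other genes.

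Counts were fitted in R 4.3.3 with edgeR 4.0.16 (TMM, estimateDisp, glmQLFit, glmQLFTest, 2-sided, Benjamini-Hochberg over all 10481 genes), separately for each comparison, with no covariate. The study names TMM and glmQLFTest in edgeR, with its thresholds (log2 fold change 0.5, or 0.3 for pathways, unadjusted p 0.05, mean CPM 0.05), and the other settings were chosen here. Shares of all genes past these thresholds are those of the fits made here, where fewer genes passed in spinal cord than the study reports. CPM and RPKM use the TMM factors of all 12 libraries, while fold changes come from the fit of each comparison. The SE is the log2 fold change over the square root of the F statistic. Pairs of replicates differed by a chi-square per gene of 3.98 to 23.7, so none was a duplicate. P-values measure the spread between these libraries. Deviations of same-numbered SMA brain and spinal cord libraries correlated at 0.379, 0.146 and 0.159, and the library number was also fitted as a block. Brain library 2 with spinal cord library 3 (0.177) and brain library 3 with spinal cord library 2 (0.221) correlated as well. Pairing by number is thus not shown by these values, and it is not stated in the labels.

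The members were given as a list, and they and the gene lists were chosen with earlier results of these data known. All members are named in each comparison, with other genes named where called or most occupied in their list. Gene names came from a supplementary list, of which 1999 genes were at hand. Of the alternatives, the closest-depth pairs were chosen after seeing the data. Scripts were tested on simulated counts. DESeq2 1.42.0 was an alternative, and figures used matplotlib 3.10.9 in Python 3.11.15. A marker gene is not reported here.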

Additional observations from a re-analysis of the deposited data

How the results depend on the processing

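The alternatives to the TMM fit were library size alone, upper-quartile factors, DESeq2, the genes filterByExpr keeps, removal of a trend with counts per base, the library number as a block, 1 fit over all 12 libraries, a fold threshold of 0.3, and leaving out each library. The planned ratio per protein residue was not run for want of a protein table.

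With the fold threshold of 0.3, 1 gene was called between SMA and control spinal cord. Between the tissues in SMA the count was 4 with the replicate block and 4 to 5 without any single library, and in controls it was 4 to 6. With the replicate block, the exact permutation of the paralog ratios gave 1.55 and 0.88 at an adjusted p of 0.0625, because the paired relabellings allow no p below 0.0312. Between the tissues in controls, deviations of same-numbered libraries correlated at 0.109, 0.0043 and 0.128, and between the genotypes the signs were mixed in each tissue. The block left the other counts of called members as they were. At an unadjusted p below 0.05 it gave 8 members rather than 6 between SMA and control spinal cord and 0 rather than 1 in brain.

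Over all genes, 733 had an unadjusted p below 0.05 between SMA and control spinal cord, against 1438 with the block and 391 to 1216 without a library, and 103 passed the study's thresholds, against 207 with the block, 169 in 1 fit over all libraries and 58 to 388 without a library. In brain, 529 genes had such a p and 160 were called, against 320 and 91 by DESeq2, and 273 were called without SMA library 2. Of the 10 genes, 6 had such a p in spinal cord, against 0 after trend removal and 2 to 7 without a library. Between the tissues in controls, 4029 genes were called, against 2550 without control brain library 2 and 2596 without library 3.

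Directions turned for differences that had not passed an adjusted p of 0.05 with TMM and all libraries, although Eef2 between the tissues in controls passed it without control brain library 1 and Eef1g passed it after trend removal in the turned direction. Between SMA and control brain, Eef1d was at 0.0039 with DESeq2 and 0.0079 with upper-quartile factors, Eef1b2 at -0.0100 with library size alone, -0.0065 in 1 fit over all libraries and -0.094 after trend removal, and with that trend Eef1g was at -0.038 and Eif4a1 at -0.0070. Leaving out a library gave -0.093 to 0.13 for Eef1b2, -0.079 to 0.057 for Eef1d, -0.015 to 0.25 for Eif5a and -0.0031 to 0.19 for Eif4a1. Between SMA and control spinal cord, Eif4g2 was at 0.00042 with upper-quartile factors and at -0.064 to 0.066 without a library, and after trend removal Eef1b2 was at -0.028, Eef1g at -0.053, Eef2 at -0.014, Eif4a1 at -0.047 and Eif4a2 at -0.036.

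Between the tissues in controls, Eef1g was at 0.012 with library size alone and -0.085 to 0.020 without a library, and after trend removal Eef1b2 was at 0.22, Eef1g at 0.32, Eef2 at 0.10 and Eif4g2 at 0.12. In the closest-depth pair of controls, Eef1b2 was at 0.13, Eef1g at 0.067 and Eef2 at 0.0077. In SMA, Eef1b2 was at -0.044 and Eef1g at -0.0080 with upper-quartile factors, and Eef2 at 0.088 after trend removal. For the interaction, Eif4a2 was at -0.0030 with library size alone and -0.11 after trend removal, which also gave Eef1g at -0.0017, Eef2 at -0.016, Eif5a at -0.0078 and Eif4a1 at -0.066, and without a library Eif4a1 was at -0.016 to 0.19 and Eif4a2 at -0.036 to 0.078. The cause of these turns was not tested. Library totals differ by tissue and genotype, and each group has 3 libraries.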
